A study of Homo sapiens with 32 samples.

Results

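The regions of uracil-enriched DNA that lie on chromosome 22 were taken from all 15 libraries with deposited region lists, by the chromosome name of each region. There were 20030 of them among 2009008 regions in all, or 0.997%. U-DNA-Seq pulls down sonicated genomic DNA with a FLAG-tagged form of a uracil-DNA glycosylase that binds uracil without cutting it out, and each region is a stretch in which the enriched library exceeded its input. HCT116, a colon carcinoma line without working mismatch repair (MMR), and HCT116 chr3+, a line made from it, which is MMR proficient, were used, each condition with 2 biological replicates. The conditions were untreated parental cells (WT), untreated cells with UGI (NT_UGI and, in the MMR proficient line, NT_UGI_MMR), cells with UGI given 20 µM 5-fluoro-2'-deoxyuridine for 48 h (5FdUR_UGI and 5FdUR_UGI_MMR), and cells with UGI given 100 nM raltitrexed for 48 h (RTX_UGI and RTX_UGI_MMR). UGI, a phage protein that inhibits the main uracil-DNA glycosylase, was delivered with EGFP by a retrovirus and the cells were sorted for EGFP, so every drug-treated library comes from cells with UGI and only WT and K562 lacked it. K562, a chronic myelogenous leukaemia line, was untreated and had 1 library. The 8 drug-treated and the 6 non-treated HCT116 libraries were the groups compared. The lists hold no read counts, so the depth behind a region is unknown.

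Uracil enters DNA when deoxyuridine triphosphate is used in place of thymidine triphosphate, or when cytosine is deaminated. Both drugs act on thymidylate synthase, the enzyme that makes thymidylate: 5FdUR is turned into an inhibitor of it and raltitrexed is an antifolate that blocks it. The authors state that 5FdUR is also built into DNA as fluorouracil and that the pull-down picks up both bases. Regions after 5FdUR may therefore hold either base. Chromosome 22 is a small acrocentric chromosome, with few unique sequences on its short arm and a long arm that is rich in genes and in GC; it carries the immunoglobulin lambda locus and the APOBEC3 cluster of cytidine deaminases.

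The reference holds 39.2 Mb of known bases of chromosome 22, with a GC content of 47.0% against 40.9% over the genome, and 447 protein-coding genes, or 11.4 per Mb against 6.82 per Mb. Here 300 bases are given from the middle of 3 stretches, each the longest that one set of libraries covered, the second on the long arm only, to show what kind of sequence each set held. They are written 5′ to 3′ on the plus strand of GRCh38, with CpG dinucleotides in capitals.
All 4 5FdUR libraries and no RTX library (chr22:22694151-22694450): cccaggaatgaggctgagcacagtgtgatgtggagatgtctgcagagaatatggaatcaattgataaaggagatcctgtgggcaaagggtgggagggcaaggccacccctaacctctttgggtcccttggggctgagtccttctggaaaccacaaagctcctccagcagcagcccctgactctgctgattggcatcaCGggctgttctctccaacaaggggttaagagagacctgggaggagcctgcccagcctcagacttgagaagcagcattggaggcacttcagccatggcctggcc
All 6 non-treated libraries, on the long arm beyond 17 Mb (chr22:43694401-43694700): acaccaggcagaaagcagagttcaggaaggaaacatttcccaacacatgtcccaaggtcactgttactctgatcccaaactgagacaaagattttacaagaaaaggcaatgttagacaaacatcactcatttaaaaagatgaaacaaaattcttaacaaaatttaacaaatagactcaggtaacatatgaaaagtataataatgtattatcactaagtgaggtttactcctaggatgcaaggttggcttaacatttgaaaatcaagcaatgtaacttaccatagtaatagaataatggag
K562 and no HCT116 library (chr22:15803451-15803750): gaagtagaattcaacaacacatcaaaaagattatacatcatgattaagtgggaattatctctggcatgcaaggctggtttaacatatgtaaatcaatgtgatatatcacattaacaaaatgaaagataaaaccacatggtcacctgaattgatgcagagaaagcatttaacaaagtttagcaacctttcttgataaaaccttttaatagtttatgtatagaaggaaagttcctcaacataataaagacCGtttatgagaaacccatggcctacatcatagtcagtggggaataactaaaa
The 5FdUR stretch ran over 25600 bp (chr22:22681501-22707100) at 50.3% GC inside the immunoglobulin lambda locus, and its window reached into an exon of the variable-gene pseudogene IGLV3-24. The non-treated stretch ran over 3500 bp (chr22:43692801-43696300) at 31.2% GC in an intron of EFCAB6. The K562 stretch ran over 4800 bp (chr22:15801201-15806000) at 36.1% GC in the non-coding gene DUXAP8. The windows of the 5FdUR and the K562 stretch each held 1 CpG dinucleotide and that of the non-treated libraries 0, against a median of 4 in 130483 windows of 300 bases on the chromosome.

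Without drug, chromosome 22 was covered less than the rest of the genome, and after drug it was covered more in all but 1 library. The covered share, the percentage of known bases inside regions, was 1.51% in both WT libraries, 1.44% and 1.93% in NT_UGI, and 1.42% and 1.59% in NT_UGI_MMR. It was 29.4% and 27.1% in 5FdUR_UGI, 23% and 15.7% in 5FdUR_UGI_MMR, 35.4% and 39.5% in RTX_UGI, and 22.9% and 30.0% in RTX_UGI_MMR. All 8 drug-treated values were above all 6 non-treated ones. The means were 27.9% ± 7.51 (SD, n = 8) and 1.57% ± 0.19 (SD, n = 6), a difference of 26.3 percentage points (two-sided exact permutation test over 3003 arrangements, p = 0.000333, the smallest the design allows; adjusted p = 0.000777 over 7 tests). The authors tuned the thresholds to similar total lengths in the replicates of a condition; the share of the other chromosomes was close to level within each class, 11.0% to 11.4% without drug and 17% to 18.6% with it.

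**Figure D1:**
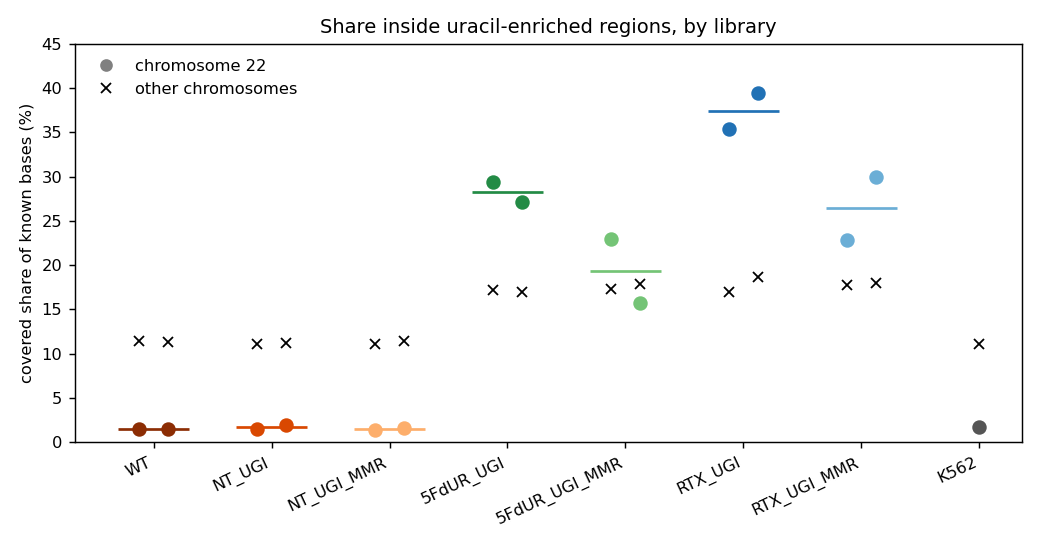
Percentage of known bases inside uracil-enriched regions on chromosome 22 (filled circles, with a line at the mean of the 2 replicates) and on all other chromosomes (crosses), for each of the 15 libraries. Chromosome 22 sits below the other chromosomes in the non-treated libraries and in K562, and above them in 7 of the 8 drug-treated libraries.

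The share of the other chromosomes was also higher after drug, so that of chromosome 22 was set against it in the same library. The log2 of the chromosome 22 share over that of the other chromosomes lay between -2.97 and -2.53 in the 6 non-treated libraries. It lay between 0.36 and 1.09 in 7 drug-treated libraries and was -0.18 in replicate 2 of 5FdUR_UGI_MMR. The difference between the class means was 3.47 on the log2 scale (exact permutation test, p = 0.000333, adjusted p = 0.000777). The lowest log2 value of a region on the chromosome, which reflects the threshold, was 0.13 to 0.27 in the drug-treated libraries and 0.25 to 0.33 in the non-treated ones. With regions under 0.34 left out of every library, the share fell to 0.92% in replicate 2 of 5FdUR_UGI_MMR. This lay inside the non-treated range of 0.804% to 1.82%, and the other 7 had 10.7% to 35.5%. The difference in means was 18 points (exact permutation test, p = 0.00533). Over the whole genome that replicate then covered 0.433%, and the non-treated libraries 6.61% to 11.1%. The log2 share relative to the other chromosomes differed by 3.81 under this cut (exact permutation test, p = 0.000333).

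The regions of the drug-treated libraries were more numerous and part of them far longer, and they lay in other sequence. There were 1705 to 2437 regions on the chromosome in a drug-treated library and 267 to 366 in a non-treated one. The N50 length, at which regions of that length or longer hold 50% of the covered bases, was 3700 to 4200 bp without drug. It was 12400 and 16000 bp in 5FdUR_UGI, 6400 and 11100 bp in 5FdUR_UGI_MMR, 25500 and 48500 bp in RTX_UGI, and 9500 and 14400 bp in RTX_UGI_MMR. The difference in log2 N50 was 1.94 (exact permutation test, p = 0.000666, adjusted p = 0.000932). The median length, in contrast, was 1000 to 1500 bp in the non-treated and 1100 to 1500 bp in the drug-treated libraries, and its log2 differed by 0.042 (exact permutation test, p = 0.727). Regions of 50 kb or more numbered 0 in each non-treated library and from 3 to 75 in the drug-treated ones, where they held 1.75% to 49.5% of the covered bases. The longest region of the chromosome was 308200 bp, in replicate 2 of RTX_UGI, and the longest without drug was 13400 bp.

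The GC content of the covered bases was 34.7% to 36% in the non-treated libraries, below the 47.0% of the chromosome, and 47.2% to 51.7% in the drug-treated ones. The difference was 13.8 percentage points (exact permutation test, p = 0.000333, adjusted p = 0.000777). Exons of protein-coding genes made up 5.61% of the chromosome. They made up 0.471% to 1.85% of the covered bases without drug, 8.39% to 8.94% in the 4 RTX libraries, 7.01% and 8.10% in 5FdUR_UGI, and 3.17% and 4.87% in 5FdUR_UGI_MMR. The drug-treated libraries lay above the non-treated ones by 6.36 points (exact permutation test, p = 0.000666, adjusted p = 0.000932), and the 2 5FdUR_UGI_MMR libraries were the drug-treated ones under the chromosome's own exon share.

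Chromosomes 19, 17 and 21 were set beside it, the first with a similar GC content of 47.9%, the last with a similar size and a GC content of 40.9%. Without drug, the log2 ratio of the chromosome 22 share to that of chromosome 21 was -3.03 ± 0.2 (SD, n = 6), negative in 6 of 6 libraries, and to that of chromosome 17 it was -1.25 ± 0.0826, also in 6 of 6 (exact sign-flip test, adjusted p = 0.0375 over 6 tests for each). It was 0.16 ± 0.14 against chromosome 19 and positive in 6 of 6 (adjusted p = 0.0375 by the exact test), a call that was lost with regions under 5 kb left out (exact p = 0.531). After drug, the ratio to chromosome 21 turned to 1.19 ± 0.58 (SD, n = 8), positive in 8 of 8, and the ratio to chromosome 19 was 0.35 ± 0.25 in 8 of 8 (exact sign-flip test, adjusted p = 0.0234 for each). Against chromosome 17 it was 0.0022 ± 0.31, positive in 3 of 8 libraries (exact p = 0.992). The share of chromosome 21 itself was 12.2% to 13.2% without drug and 8.53% to 15.7% with it, ranges that overlap.

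The share was also set against that of sequence of the same GC content. For each library an expected share was computed from 100 kb bins of the same GC content, in classes of 1%, on the other chromosomes; this measure was chosen after the data were seen. After drug, the observed share over the bins used was 28.1% and the expected one 33.3%, a difference of -5.20 ± 2.12 points (SD, n = 8) that was negative in 8 of 8 libraries (exact sign-flip test, p = 0.00781). Without drug, the observed share was 1.54% and the expected one 1.90%, with a difference of -0.359 ± 0.0763 points (SD, n = 6), negative in 6 of 6 (exact p = 0.0313). The bins used include chr22:13000001-15000000, which held no region in any library and so lowers the observed share of every library. The libraries are therefore not independent in sign. How much of the differences such sequence makes up was not tested. In 1 Mb bins with a GC content under 45%, of which the chromosome has 10, the non-treated libraries covered 3.5% ± 0.258 (SD, n = 6) against 13.2% on other chromosomes, and the drug-treated ones 5.79% ± 1.37 (SD, n = 8) against 13.6%. GC was not matched within this class. It includes chr22:11000001-17000000, near the centromere, where chr22:13000001-15000000 held no region in any library. Its other bins start at 28, 33, 34 and 40 Mb. Their drug-treated means were 17.4%, 3.52%, 3.89% and 21.5%, and their non-treated means 6.13%, 1.62%, 4.09% and 0.382%. In the 11 bins of 50% GC or more, the drug-treated libraries covered 34% ± 13.6 against 39.4% elsewhere, while the non-treated ones covered 0.449% ± 0.174 against 0.226%. In the 19 bins between, the drug-treated libraries covered 35.3% ± 8.17 against 37.9% elsewhere and the non-treated ones 1.12% on either side.

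Along the chromosome, 40 bins of 1 Mb with at least 50% known bases were compared, out of 2948 in the genome. In 22 of them the lowest drug-treated library was above the highest non-treated one; over the genome this held for 32.9% of bins. In 1 bin the order was the opposite, against 24.2% of bins over the genome. With an exact permutation test in each bin, adjusted by Benjamini-Hochberg over the genome, 29 were higher after drug (41% over the genome) and 1 lower (31.1%). With regions under 0.34 left out, 3 bins were higher in every drug-treated library, against 2.88% of all bins. The non-treated profile was low: in 35 of the 40 bins every non-treated library was under 5%, and in 39 under 10%. These counts were made on chromosome 22 only, so no share over the genome stands beside them. The highest bin, chr22:16000001-17000000, had 10.5% to 12.7% in the non-treated libraries. The 2 adjoining bins of chr22:13000001-15000000 held no region in any library. Their bases count as known here, and whether reads could be placed there uniquely was not tested.

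**Figure D2:**
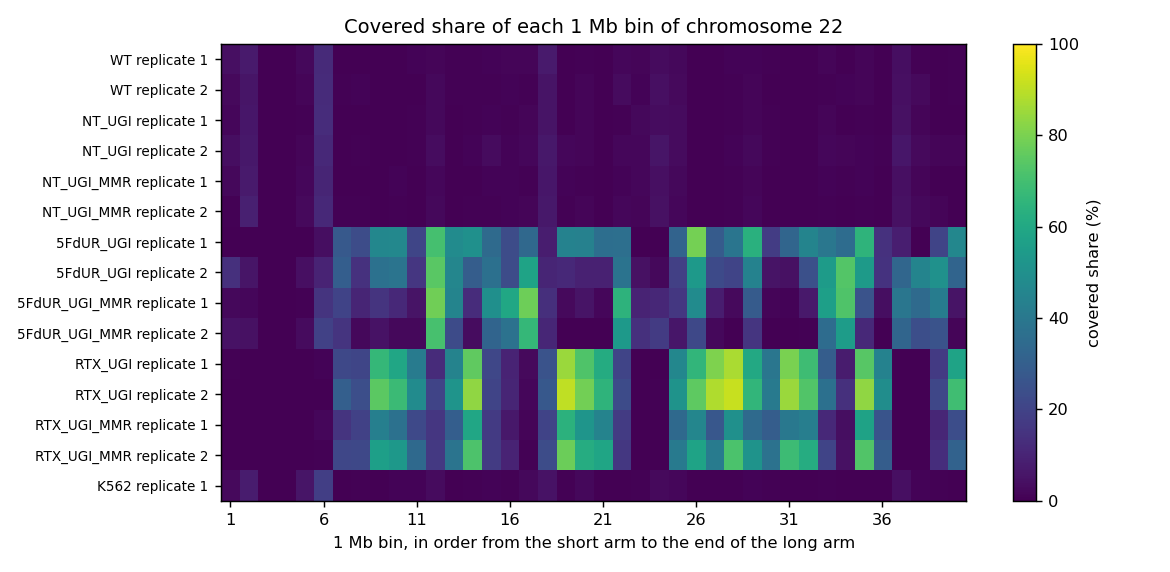
Covered share, as a percentage in colour, of the 40 bins of 1 Mb (columns, in order along the chromosome) in the 15 libraries (rows). The 6 non-treated libraries and K562 are low throughout, the RTX libraries share one set of bright bins, and the 5FdUR_UGI_MMR libraries another.

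The bin chr22:36000001-37000000, which holds MYH9, the heavy chain of non-muscle myosin, the splicing regulator RBFOX2 and the calcium channel subunit CACNG2, had the largest mean increase. It was covered to 79.2% and 54.2% in 5FdUR_UGI, 48.3% and 21.6% in 5FdUR_UGI_MMR, 65.7% and 75.3% in RTX_UGI, and 45.8% and 58.1% in RTX_UGI_MMR. Of the non-treated libraries, 5 had no region there and replicate 2 of NT_UGI had 0.3%. The bin chr22:45000001-46000000, with ATXN10, the matrix protein gene FBLN1 and the meiotic cohesin gene SMC1B, came next and rose from 1.09% ± 0.37 (SD, n = 6) by 54.5 points. The bin chr22:24000001-25000000, with CABIN1 and SPECC1L, rose from 0.577% ± 0.153 by 47.7 points, and in it the lowest drug-treated library had 3.28%. With regions under 0.34 left out, replicate 2 of 5FdUR_UGI_MMR had no region in any of these 3 bins. The bin that was lower in every drug-treated library was chr22:12000001-13000000, on the short arm, which has no protein-coding gene: the non-treated libraries had 5.60% to 8.83%, the RTX libraries 0, and the 5FdUR libraries 0 to 5.54%. With regions under 5 kb left out, the groups overlapped there.

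The RTX and 5FdUR libraries were separated in part of the bins, while their totals did not differ beyond the spread of the libraries. The mean share was 31.9% ± 7.19 after RTX and 23.8% ± 6.01 after 5FdUR (SD, n = 4 each), and the ranges overlapped (difference 8.12 points; exact permutation test over 70 arrangements, p = 0.143, adjusted p = 0.167). The log2 share relative to the other chromosomes differed by 0.39 (exact p = 0.257), and by -0.069 with regions under 0.34 left out (exact p = 0.8). Every RTX library was above every 5FdUR library in 11 of the 40 bins (17.4% over the genome) and below every one in 8 (22.8%); without replicate 1 of 5FdUR_UGI they were below in 15, and with regions under 0.34 left out in 2. Single bins did not reach significance: the smallest adjusted p over all 2948 bins was 0.0711 by the exact permutation test, with 1184 bins at an unadjusted p under 0.05. The RTX mean was above 50% in 13 bins and the 5FdUR mean in 4, with 1 bin in both, counted on chromosome 22 only.

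The 3 bins with the largest excess after RTX were chr22:29000001-30000000, chr22:38000001-39000000 and chr22:41000001-42000000. The first, which holds the tumour suppressor gene NF2, the phosphatase gene MTMR3 and the Dickkopf receptor gene KREMEN1, was covered to 85.1% and 90.4% in RTX_UGI and 64.2% and 77.7% in RTX_UGI_MMR. The 5FdUR libraries had 44.2% and 11.4% in 5FdUR_UGI and 2.46% and 0 in 5FdUR_UGI_MMR, so the groups did not overlap but replicate 1 of 5FdUR_UGI stood well above the other 3. The second, with the kinase gene CSNK1E and the phospholipase gene PLA2G6, had 50.1% to 91.8% after RTX and 0.17% to 39.0% after 5FdUR. The third, with the acetyltransferase gene EP300, had 40.1% to 85.1% after RTX and 0.01% to 32.7% after 5FdUR.

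In the other direction, the bins chr22:27000001-28000000, chr22:22000001-23000000 and chr22:44000001-45000000 had the largest excess after 5FdUR. The first, with the transcriptional coregulator gene MN1 and the phosphatidylinositol transfer protein gene PITPNB, had 33.7% and 57.8% in 5FdUR_UGI and 77.9% and 66.7% in 5FdUR_UGI_MMR, and 0.5% to 2.49% in the RTX libraries, a range that overlapped the 0.58% to 1.71% of the non-treated ones. The second, which holds the immunoglobulin lambda locus, had 70.5% to 78.2% in the 4 5FdUR libraries, 12.2% to 20.4% in the RTX libraries and 1.53% to 3.26% without drug. The third, with PARVB, which encodes a focal adhesion protein, had 35.5% to 73.3% after 5FdUR and 3.70% to 13.7% after RTX. With regions under 0.34 left out, the third no longer separated the drugs.

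**Figure D3:**
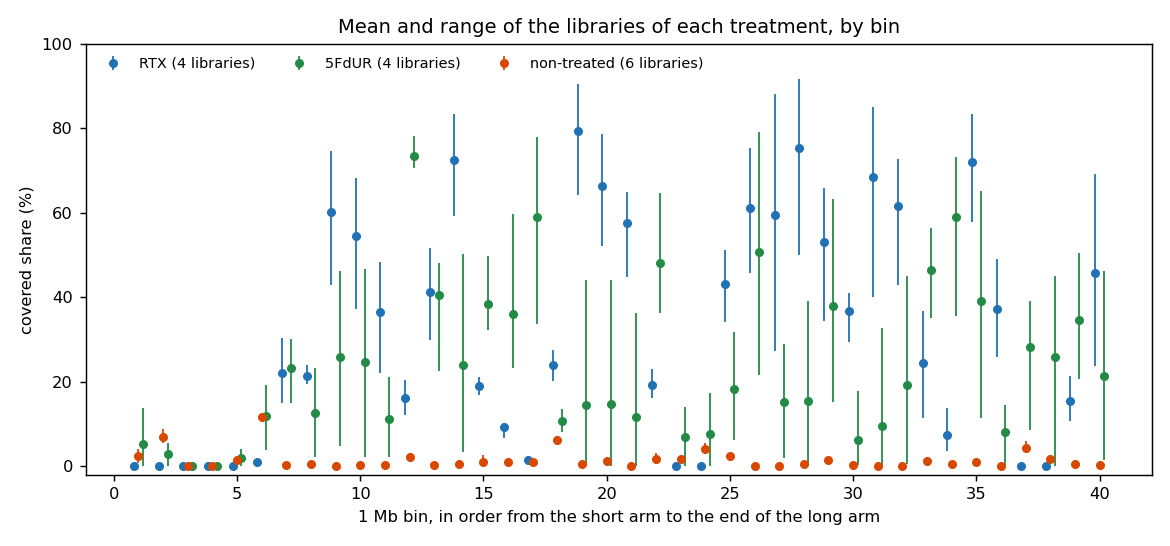
Mean covered share (circles, %) of each of the 40 bins after RTX, after 5FdUR and without drug, with vertical bars from the lowest to the highest library. The RTX mean exceeds 50% in 13 bins and the 5FdUR mean in 4, and the non-treated libraries stay under 10% in 39 bins. These counts were made on chromosome 22 only, with no share over the genome beside them.

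The bins on either side differed in what they hold. The 11 bins higher after RTX had on average 16.5 protein-coding genes (6 to 24), a GC content of 47.6% and 8.31% of exon bases. The 8 bins higher after 5FdUR had 5.75 genes (1 to 10), a GC content of 45.8% and 2.70% of exon bases, and all 40 bins had 11.7 genes, 47.0% and 5.61%. Taken alone against no drug, RTX was higher in 29 bins (41.4% over the genome) and lower in 8 (44.2%), and 5FdUR was higher in 24 (41.5%) and lower in 1 (25.5%). The bins lower after RTX included chr22:11000001-13000000 and chr22:15000001-17000000 near the centromere, and chr22:47000001-49000000 with TBC1D22A and TAFA5.

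The likeness of the libraries is described by Pearson's r over the 38 bins with a region in any library; bins of one library share its threshold and depth, and neighbouring bins are not independent. Between non-treated libraries of the 3 conditions r was 0.93 to 0.97, and between replicates of an RTX condition 0.985 and 0.997. Between the 2 RTX conditions it was 0.94 to 0.97. The replicates of 5FdUR_UGI reached 0.59 and those of 5FdUR_UGI_MMR 0.95. The 5FdUR_UGI_MMR libraries ran against the RTX libraries, with r from -0.53 to -0.33 over 8 pairs. The 2 replicates of 5FdUR_UGI differed in this. Replicate 1 gave 0.65 to 0.69 with RTX, above its 0.59 with replicate 2, and 0.32 and 0.16 with 5FdUR_UGI_MMR. Replicate 2 gave -0.05 to 0.00024 with RTX, and 0.82 and 0.71 with 5FdUR_UGI_MMR. In the 3 bins chr22:29000001-32000000, replicate 1 of 5FdUR_UGI had 44.2%, 44% and 36.2%, nearer to RTX, and replicate 2 had 11.4%, 9.33% and 9.22%. In chr22:48000001-49000000, replicate 1 had 0, as did the 4 RTX libraries, and replicate 2 had 45.1%, above the 34.4% and 23.9% of 5FdUR_UGI_MMR.

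The relation of the covered share to GC content also differed among the libraries. Over those 38 bins the correlation of the covered share with GC was -0.72 to -0.66 in the non-treated libraries and -0.64 in K562. It was 0.43 to 0.61 in the 4 RTX libraries, 0.52 and 0.45 in 5FdUR_UGI, and 0.09 and -0.09 in 5FdUR_UGI_MMR. These values are descriptions over bins of single libraries.

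**Figure D4:**
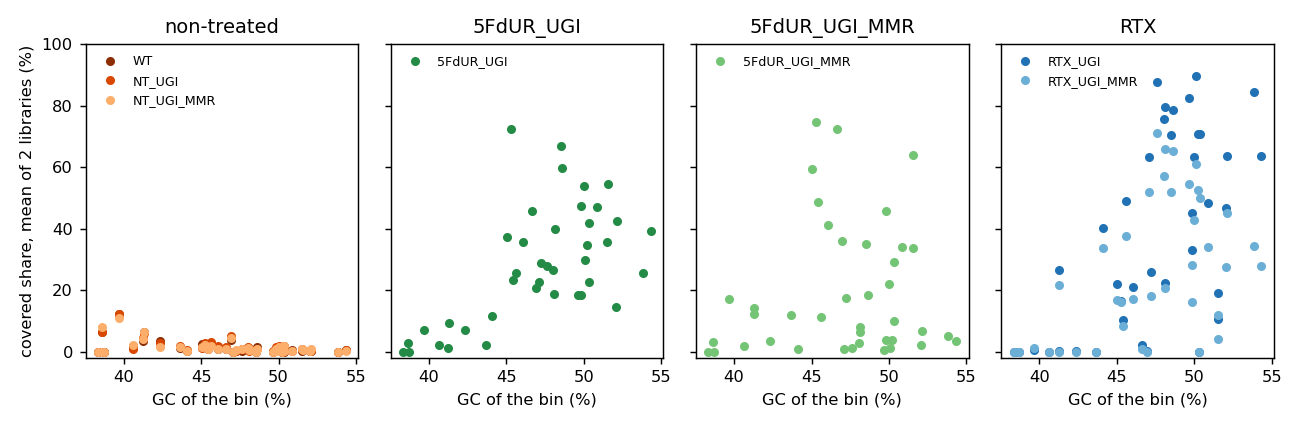
Covered share of each 1 Mb bin (%, mean of the 2 libraries of a condition) against the GC content of the bin (%), in panels for the non-treated conditions, 5FdUR_UGI, 5FdUR_UGI_MMR and RTX. Of the 10 bins under 45% GC, 8 are near 0 after RTX, among them those of chr22:11000001-17000000 near the centromere. In 5FdUR_UGI_MMR the bins of high GC split into well covered and nearly empty ones.

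MMR status was compared within each treatment. All MMR proficient libraries come from the HCT116 chr3+ line, so MMR status cannot be told apart from other differences between the lines. The labels do not say on which sequencing platform each library was run. The covered share of the chromosome differed between MMR proficient and deficient cells by -8.91 points after 5FdUR and by -11.0 points after RTX, without overlap of the replicates in either. Without drug the difference was -0.183 points and the replicates overlapped. With 2 libraries against 2 the smallest exact p is 0.333, so none of these can pass a test. After RTX, both proficient libraries were below both deficient ones in 28 of the 40 bins (17% over the genome) and above them in 0 (29.2%). After 5FdUR they were below in 21 (24.4%) and above in 7 (36.1%), and with regions under 0.34 left out above in 0. The 7 bins lay around chr22:16000001-17000000, chr22:26000001-29000000 and chr22:32000001-35000000. In the bin with the sodium-glucose transporter gene SLC5A1 and TIMP3, an inhibitor of metalloproteinases (chr22:32000001-33000000), the proficient cells had 64.7% and 53.7% and the deficient ones 36.4% and 38%. Without drug the counts were 9 bins lower (13.1%) and 4 higher (13.6%).

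The effect of UGI without drug was read from NT_UGI against WT. NT_UGI was above WT by 0.175 points and the replicates overlapped. Both NT_UGI libraries were above both WT libraries in 8 bins (10.1% over the genome) and below them in 4 (16.1%). The K562 library covered 1.70% of the chromosome with 288 regions, inside the range of the 6 non-treated HCT116 libraries, and it was 0.187 points above the WT mean. In 5 bins it was above all 6 non-treated HCT116 libraries (19.8% over the genome) and in 8 below them all (18%); 1 library gives no test. The largest excess was in chr22:16000001-17000000, which holds XKR3, GAB4 and CCT8L2, with 18.7% in K562 and 10.5% to 12.7% in HCT116. Next was chr22:15000001-16000000, with POTEH and OR11H1, members of the POTE and olfactory receptor families, with 5.72% in K562 and 0.689% to 2.51% in HCT116. Of the K562 bases, 0.525 Mb of 0.665 Mb were also covered in at least 1 non-treated HCT116 library. Genes of such families have near-identical copies and reads without a unique position had been removed, so the values of these bins are uncertain.

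Among the 447 protein-coding genes, 393 had no region over the gene body in any of the 6 non-treated libraries, or 87.9% against 56.4% over the genome. In 66 genes the 8 drug-treated libraries were all above the 6 non-treated ones (15% over the genome) and in 0 the reverse held (5.11%). Without replicate 2 of 5FdUR_UGI_MMR there were 138 such genes. Every RTX library was above every 5FdUR library in 135 genes (23.4% over the genome) and below in 32 (7.85%). More than 50% of the gene body was covered in every RTX library in 132 genes (22.9% over the genome), in every 5FdUR library in 10 (3.6%), and in all 8 libraries in 0 (0.514%). In 15 genes no drug-treated library had a region (5.52%). The median covered share of the 447 genes was 54.0% after RTX, 19.1% after 5FdUR and 0 without drug.

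Among 10 genes of replication and repair, 7 were covered more in every RTX than in every 5FdUR library and 0 less. The medians of the 10 were 80.9% after RTX and 19.9% after 5FdUR. Of all 447 genes, 30.2% were above and 7.16% below, with medians of 54.0% and 19.1%. The list was chosen with earlier results of these data known. MCM5, a subunit of the replicative helicase (chr22:35400134-35425431), was covered to 64.6% and 82.7% in RTX_UGI and 100% and 81.4% in RTX_UGI_MMR. The 5FdUR libraries had 36.8% and 45.3% in 5FdUR_UGI and 3.56% and 2.77% in 5FdUR_UGI_MMR, and the non-treated libraries 0. XRCC6, which encodes the Ku70 subunit that binds DNA ends (chr22:41621163-41664048), had 79.7% ± 14.4 after RTX and 7.69% ± 15.1 after 5FdUR (SD, n = 4 each), the latter from 30.3% in replicate 1 of 5FdUR_UGI and 0.466%, 0 and 0 in the other 3. The checkpoint kinase gene CHEK2 had 31.2% to 57.4% after RTX and 0 to 18.2% after 5FdUR. RBX1, a ubiquitin ligase subunit, POLDIP3, the meiotic recombinase gene DMC1 and the histone chaperone gene HIRA were the others of the 7. HIRA had only 17.1% to 22.6% after RTX, and 0 to 16.1% after 5FdUR. HIRA and RBX1 overlapped between the drugs with regions under 0.34 left out, and HIRA and POLDIP3 with regions under 5 kb left out. The drugs overlapped in TOP3B and SMC1B with all regions kept. CDC45, a helicase partner, had 29.9% ± 8.72 after RTX and 36.3% ± 19.2 after 5FdUR, overlapping ranges, and all 8 drug-treated libraries were above the non-treated 0, which no longer held with regions under 5 kb or regions under 0.34 left out.

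The tumour genes fell on both sides. Of 14, 7 were higher in every RTX library and 2 in every 5FdUR library, against 30.2% and 7.16% of all 447 genes. NF2, which encodes merlin (chr22:29603556-29698598), had 79.6% to 96.8% after RTX. It had 73.5%, 13%, 3.05% and 0 in the 4 5FdUR libraries, so replicate 1 of 5FdUR_UGI came close to the RTX range. EP300 (chr22:41092592-41180077) had 98.5%, 100%, 79.7% and 97.9% after RTX and 24.2%, 1.49%, 0 and 0 after 5FdUR. SMARCB1, a chromatin remodelling subunit, had 83.2% ± 20.6 and 6.8% ± 8.0 (SD, n = 4 each). EWSR1, which encodes an RNA-binding protein, had 58.4% to 99.6% after RTX and no region in any 5FdUR library. ZNRF3, a negative regulator of Wnt signalling, had 56.5% to 66.0% and 0.172% to 6.09%. BCR, the fusion partner of ABL1 (chr22:23179704-23318037), went the other way, with 14.5% and 45.8% in 5FdUR_UGI, 67% and 20.6% in 5FdUR_UGI_MMR, and 0 to 0.434% after RTX; it had no region in K562. MN1 (chr22:27748277-27801756) had 53.1% to 84.9% after 5FdUR and 0 to 5.42% after RTX. With regions under 0.34 left out, the drugs overlapped in BCR and MN1.

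**Figure D5:**
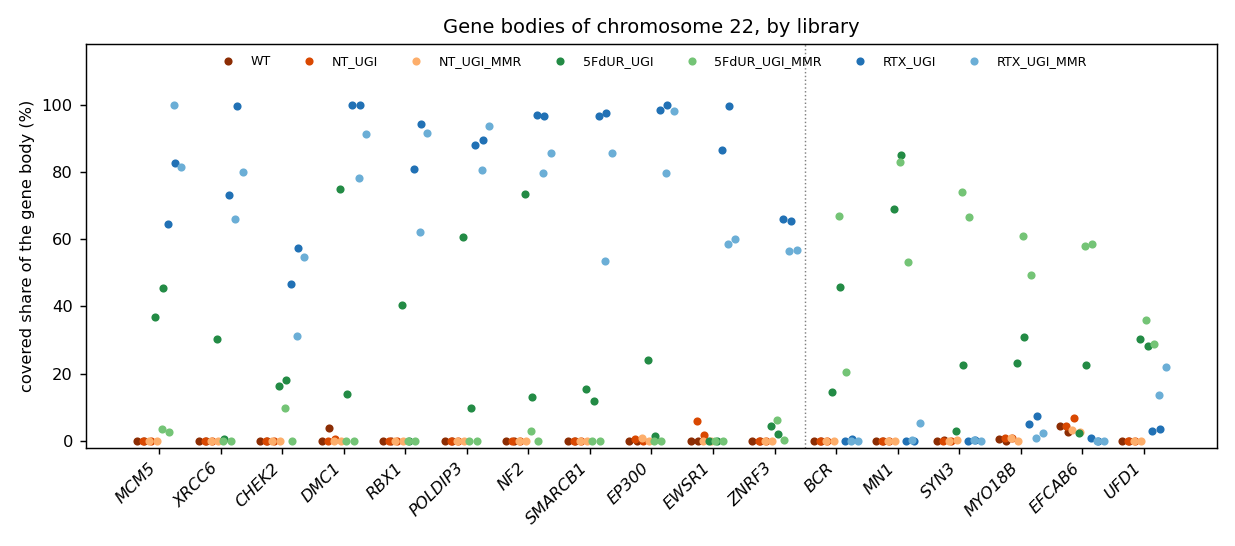
Covered share of the gene body (%) of 17 genes in the 14 HCT116 libraries, coloured by condition. The 11 genes left of the dotted line were higher in every RTX than in every 5FdUR library and the 6 right of it lower; the non-treated libraries are at or near 0 in nearly all of them.

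The 7 APOBEC3 genes, cytidine deaminases that turn cytosine into uracil in single-stranded DNA, lie side by side in chr22:38952741-39104067 and none separated the drugs. APOBEC3G had 96.3% and 60.3% in 5FdUR_UGI and 0 in both 5FdUR_UGI_MMR libraries, and 45.9% to 100% after RTX. APOBEC3A had 86.6% to 100% after RTX and 100%, 96.2%, 10.5% and 0 after 5FdUR. No non-treated library had a region in any of the 7 APOBEC3 genes, which also held for 87.9% of all 447 genes. Of 4 genes of nucleotide metabolism, 1 was above the non-treated libraries in all 8 drug-treated ones, against 14.8% of all 447 genes. This was ADA2, an adenosine deaminase, at 16.9% to 99.1%. It no longer held with regions under 5 kb or regions under 0.34 left out. UPB1, the last enzyme of pyrimidine breakdown, had 94.7% to 100% after RTX and 95.6%, 66.5%, 5.54% and 0 after 5FdUR. TYMP, thymidine phosphorylase, had a region in 2 libraries, at 14% and 33.8%, and the purine synthesis gene ADSL had none in any library.

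In the 22q11.2 interval, whose deletion causes a developmental syndrome, 2 of 7 genes were higher in every RTX library and 1 in every 5FdUR library, against the same 30.2% and 7.16% of all 447 genes. SNAP29, a vesicle fusion gene, had 59.0% to 100% after RTX and 0 to 46.2% after 5FdUR. UFD1, a ubiquitin-binding cofactor, had 3.07% to 21.9% after RTX and 28.3% to 35.8% after 5FdUR, and PRODH had no region in any library. The 10 longest protein-coding genes had a median of 2.33% after RTX and 15% after 5FdUR, against 54.0% and 19.1% for all 447 genes. Of these 10, 3 were higher in every 5FdUR library and 1 in every RTX library, against 7.16% and 30.2% of all 447. SYN3, a synapsin gene of 551 kb, had 3.03% and 22.4% in 5FdUR_UGI, 74.1% and 66.5% in 5FdUR_UGI_MMR, and 0 to 0.4% after RTX. MYO18B, a myosin gene, had 23.1% to 60.8% after 5FdUR and 0.796% to 7.32% after RTX. EFCAB6 had 2.31% and 22.7% in 5FdUR_UGI and 57.8% and 58.5% in 5FdUR_UGI_MMR, against 0 to 0.74% after RTX and 2.72% to 6.77% without drug. RBFOX2 was the 1 of the 10 that was higher after RTX, at 26.1% to 33.2% against 1.0% to 16.5%. TTC28 was above the non-treated range of 7.42% to 10.2% in every drug-treated library, at 11.6% to 19%, but the groups overlapped with regions under 5 kb left out and the mean difference turned to -0.373 points with regions under 0.34 left out. With regions under 0.34 left out, the drugs overlapped in UFD1, MYO18B and EFCAB6, and with regions under 5 kb left out in UFD1 and EFCAB6.

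The immunoglobulin lambda locus (chr22:22030934-22923034, 70 annotated genes and gene segments) was evenly covered across the 5FdUR libraries. It was covered to 71.3% and 76.4% in 5FdUR_UGI, 79.9% and 73.3% in 5FdUR_UGI_MMR, 10.2% and 17.7% in RTX_UGI, and 13.7% and 16.3% in RTX_UGI_MMR. The non-treated libraries had 1.69% to 2.88% and K562 2.59%. The 3 classes did not overlap, and the means were 75.2% ± 3.74 and 14.5% ± 3.3 (SD, n = 4 each) for the drugs (exact permutation test, p = 0.0286, the smallest that 4 against 4 allows, not adjusted). The locus lies inside a bin that was named for its excess after 5FdUR, so that p-value does not test it. The MMR proficient and deficient libraries overlapped in the locus after 5FdUR. Its GC content of 45.4% was below the 47.0% of the chromosome.

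Counted by base, 69.9% of the chromosome was covered in at least 1 drug-treated library, but 0.118% in all 8. The 4 RTX libraries had 14.6% in common and the 4 5FdUR libraries 4.01%. Bases covered in all 4 RTX and no 5FdUR library came to 1.77 Mb, with a GC content of 45.2% and 8.59% of exon bases. Those covered in all 4 5FdUR and no RTX library came to 0.971 Mb, at 51.7% GC and 3.84% of exon bases, so the order of the 2 sets in GC was the reverse of that of the called bins. Without drug, 4.32% was covered in at least 1 of 6 libraries and 0.238% in all 6, the latter at 34.3% GC and with no exon base of a protein-coding gene. No library had a region over 27.4% of the chromosome, 10.7 Mb at 43.4% GC and with 2.56% of exon bases.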

How the data were processed

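The authors aligned paired-end reads to GRCh38 with BWA (0.7.17-r1194 in the submitters' processing notes), sorted them with SAMtools (1.9-50), flagged duplicate reads with Picard, dropped reads without a unique position or in blacklisted regions, and computed log2 ratios of enriched over input coverage in 100 bp steps, smoothed over 5000 bp, with deepTools (3.2.1). The deposited lists hold regions above a threshold that the authors set for each library, each with 1 log2 value that has no heading and was read here as the ratio of that region. Of the 32 samples, the 15 enriched libraries have such lists, and 7 lists of merged replicates served as an alternative. Input and mock samples were not used here.

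With Python 3.11.15 and NumPy 2.4.6, covered shares were computed over known bases of the chromosome, of bins of 1 Mb with at least 50% known bases and of GENCODE release 44 gene bodies. Libraries were grouped by their labels and compared by two-sided exact permutation tests of the difference of means, by exact sign-flip tests against 0 and by whether the groups overlapped. Adjusted p-values are Benjamini-Hochberg values. The functions were tested on simulated data. The bins, genes, gene lists and tests were chosen with earlier results of these data known. Bins were named by the 3 largest differences in each direction and genes by the lists, the longest genes and those bins. For each stretch with a printed sequence the middle window was taken; 2 of the 3 sets shown were added after seeing the data, and some items that these rules chose are not reported here. Alternatives were regions of at least 5 kb, a log2 value of at least 0.34, other bin sizes, merged lists, condition means, a replicate block and leaving out each library. No depth is given, so no counting interval could be made.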

Additional observations from a re-analysis of the deposited data

Results flagged for a closer look

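In the 6 non-treated libraries, replicate 2 of NT_UGI lay apart from the others in the covered share of chromosome 22, with 1.93% against 1.42% to 1.59%, and in the log2 share relative to the other chromosomes, with -2.53. Replicate 2 of WT lay apart in the exon share of its covered bases, with 1.85% against 0.471% to 0.789%. Of 20 pairs of a group and a measure examined this way, chance alone flags about 1 in 20, and these made 3, of which the first 2 are the same library seen through related measures. Without replicate 2 of NT_UGI, the difference between drug and no drug was 26.4 points, against 26.3 with it.

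In the bin chr22:47000001-48000000, which holds the distal part of TBC1D22A, every 5FdUR library was above and every RTX library below all non-treated libraries. The 5FdUR libraries had 8.57%, 33.1%, 39.2% and 32.7%, the RTX libraries 0.1%, 0, 0 and 0, and the non-treated libraries 3.59% to 6.03%. RTX minus 5FdUR was -28.3 points. The non-treated libraries are the same for both drugs and cancel in the difference of the effects, so RTX minus 5FdUR is its test (exact permutation test, p = 0.0286, the smallest that 4 against 4 allows; adjusted p = 0.0711 over all bins). The bin was singled out for this pattern, so that p-value does not test it.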

How the results depend on the processing

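Of 157 recomputed values for results that answer a comparison, leave-one-out values aside, 126 were classed as unchanged. For results with a test, this means that the direction and the side of the threshold were kept. Bin counts, gene counts and differences between conditions carry no p-value of their own. For them it means a shift within a limit set for that kind of value. The share relative to the other chromosomes for RTX against 5FdUR turned from 0.39 to -0.069 with a log2 value of at least 0.34, and chromosome 22 against 17 after drug from 0.0022 to -0.0077 with regions of at least 5 kb; neither had passed its test. Weaker were the difference in region length, 0.042 by the median; the exon share, 6.61 from merged lists and 6.36 from condition means, both at exact p = 0.0571; and chromosome 22 against 19 without drug, 0.13 with regions of at least 5 kb. The causes were not tested, beyond the fewer units of merged lists and condition means.

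The following counts are percentages of the bins of chromosome 22. With a log2 value of at least 0.34, bins higher after drug fell from 55% to 7.5% and bins lower after drug became 7.5%, bins lower after RTX than after 5FdUR 5%, MMR proficient higher after 5FdUR 0%, MMR proficient higher and lower without drug 5% and 12.5%, NT_UGI higher and lower than WT 12.5% and 5%, and K562 below HCT116 5%. With regions of at least 5 kb, bins lower after drug became 0%, MMR proficient lower without drug 5%, NT_UGI higher 7.5% and K562 below 2.5%. In 2 Mb bins, bins lower after drug became 5%, MMR proficient higher after 5FdUR 10%, NT_UGI lower 5% and K562 above 25%. In 500 kb bins, bins lower after drug became 1.23% and K562 below 11.1%. RTX alone was lower than no drug in 20% of bins. With all genes in place of protein-coding ones, 102 were covered more and 5 less after drug, and relative to the library 1 was covered less. K562 minus WT became 0.319 points with regions of at least 5 kb and 0.526 with a log2 value of at least 0.34. Among single bins and genes, TTC28 after drug turned to -0.37 points with a log2 value of at least 0.34, and 30 of 84 values lost their separation.

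Leaving out each library in turn gave differences from 24.7 to 28.1 points in the covered share, 3.40 to 3.58 in the relative share, 1.70 to 2.12 in log2 N50, 13.5 to 14.1 in GC and 6.12 to 6.94 in exon share between drug and no drug, and 5.42 to 11.1 points and 0.19 to 0.54 between RTX and 5FdUR. Bins higher after drug ranged from 55% to 72.5%, lower from 2.5% to 2.5%, higher after RTX from 27.5% to 40%, and lower from 20% to 37.5%, the latter without replicate 1 of 5FdUR_UGI. Genes covered more after drug ranged from 66 to 138, the latter without replicate 2 of 5FdUR_UGI_MMR, and covered less from 0 to 0.

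Replicate numbers were taken as shared numbers and not as pairs: over the bins of chromosome 22, the deviations of equally numbered libraries from their condition means correlated between -0.69 and 0.60, and over 0.1 in 5 of 21 pairs of conditions. With the replicate block, the difference between drug and no drug was 26.3 points in the covered share (exact permutation test within numbers, p = 0.000816) and 3.47 in the relative share, and between RTX and 5FdUR 8.12 points (exact p = 0.222) and 0.39 (exact p = 0.278). With the block, 55% of bins were higher and 2.5% lower after drug, 27.5% higher and 22.5% lower after RTX than after 5FdUR, and 68 genes were covered more after drug. With the block, no result crossed the threshold of its test and no count moved by over 1.5 times.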
